A study of Homo sapiens with 6 samples.

Results

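The genes described here are 59 genes of mitosis, the spindle and the kinetochore, chosen by symbol from the gene table of an RNA-seq study of SRSF10, which encodes an SR-family regulator of splicing. All 59 were found among the 60623 genes of the table, each in the row with its symbol. The study compared cells labelled Huh7 with SRSF10 knocked down, 3 libraries, with cells labelled Huh7 whose genotype label is WT, 3 libraries, called controls below. Huh7 is a human hepatocellular carcinoma line, known to make albumin and alpha-fetoprotein. According to the series title the knockdown was made with a short hairpin RNA, the control titles begin with NC, and no label says whether the controls carried a control hairpin. Effects of a hairpin or its delivery and effects of lower SRSF10 cannot then be told apart. Whether the libraries of a group came from different cultures is not stated in the labels, so the spread behind each p-value may be technical.

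In mitosis the duplicated chromosomes are compacted by condensin and topoisomerase, attached through kinetochores to the microtubules of the spindle, and held until the spindle assembly checkpoint is satisfied. The anaphase-promoting complex, a ubiquitin ligase, then marks securin and cyclin B for destruction, the sister chromatids separate, and the cell divides in cytokinesis. Most of these genes are transcribed in the G2 and M phases of the cell cycle. Their promoters are known for 2 short elements, CCAAT boxes bound by NF-Y and the cell cycle genes homology region (CHR). The DREAM repressor, B-MYB and FOXM1 act through the CHR. They are widely used as a measure of proliferation in liver tumours.

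The targeted gene SRSF10 (ENSG00000188529) lies on the minus strand of GRCh38 chromosome 1 from 23964804 to 23980927. It had 10.6, 10.8 and 10.6 FPKM in the knockdown and 18.6, 19.5 and 19.8 FPKM in the controls. FPKM are fragments scaled to gene length and to the mapped fragments of the library. The mean fell by 44.8% in the knockdown, with no overlap between the groups, and the limma adjusted p was 0.000166 at a log2 fold change of -0.80 (SE 0.0379). An exact two-sided permutation test gave p = 0.1, which is the smallest p that 3 libraries against 3 can give. Depth, estimated from the steps between low FPKM values, was 12740000 to 13990000 fragments in the knockdown libraries and 12720000 to 14350000 in the controls. Liver markers were scarce, which goes against the label of the cells. AFP, APOA1, SERPINA1 and ALB stayed under 1 FPKM in every library and APOA2 and TTR were listed at 0 in all, while FGB and HNF4A were detected. Low as it was, ALB was at 0.434 to 0.814 FPKM in the knockdown and 0.115 to 0.172 FPKM in the controls, without overlap. SERPINA1 lay the same way, at 0.539 to 0.674 FPKM in the knockdown and 0.0753 to 0.144 FPKM in the controls. The summed level of the 8 liver markers was 11.3 to 13.01 FPKM in the knockdown and 10.4 to 12.6 FPKM in the controls. That of 4 fibroblast markers was 9.09 to 10.2 FPKM in the knockdown and 4.07 to 5.13 FPKM in the controls, nearly all of it from LUM. COL1A1, at 0.0718 to 0.172 FPKM in the knockdown and 0 to 0.0142 FPKM in the controls, and DCN, at 0.102 to 0.25 FPKM in the knockdown and 0.0055 to 0.0376 FPKM in the controls, lay the same way without overlap, and COL1A2 was at or near 0. That of 3 endothelial markers was 6.28 to 7.33 FPKM in the knockdown and 4.62 to 5.81 FPKM in the controls, nearly all of it from PECAM1. That of 3 leukocyte markers was at most 0.49 FPKM in any library. The part of these markers in the results was not tested.

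In the knockdown 13 of the 59 mitotic genes moved, by small amounts and in both directions. Of the 57 that were tested, 6 were higher and 7 lower at an adjusted p of 0.05 (limma on log2(FPKM + 1), adjusted over all 12191 tested genes). These shares, 10.5% and 12.3%, lie close to those of all tested genes, of which 12.6% were higher and 12.5% lower (25.2% in either direction). The median log2 fold change, knockdown minus control, was 0.03 over the 57 genes and -0.01 over all tested genes, and over the 57 it was lower, 0.0051 to 0.021, whichever library was left out. Groups did not overlap for 13 higher and 10 lower members, against 20.6% and 22% of all tested genes (42.7% in either direction). The changes that passed were 0.12 to 0.27 in size on the log2 scale with a median of 0.22, whereas the median over all genes that passed was 0.31. Of the tested genes, 11.7% had a larger log2 change than any member, called or not. The sets differ in level, with a median of 23.3 FPKM for tested members and 5.88 FPKM for all tested genes. The part of level in these sizes was not tested.

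The count of lower members was 3 without knockdown replicate 2, 3 without knockdown replicate 3 and 4 without control replicate 1, against 7 with all libraries. In the same fits the lower genes among all tested were 982, 964 and 1077, against 1525 with all libraries. The count of higher members was 4 to 6 when 1 library was left out. With median-of-ratios scaling in place of the deposited scaling the split was 9 higher and 5 lower among members and 1652 higher and 1397 lower among all tested genes. In RNA from a whole culture, fewer cells in mitosis and less of a transcript per cell cannot be told apart.

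**Figure D1:**
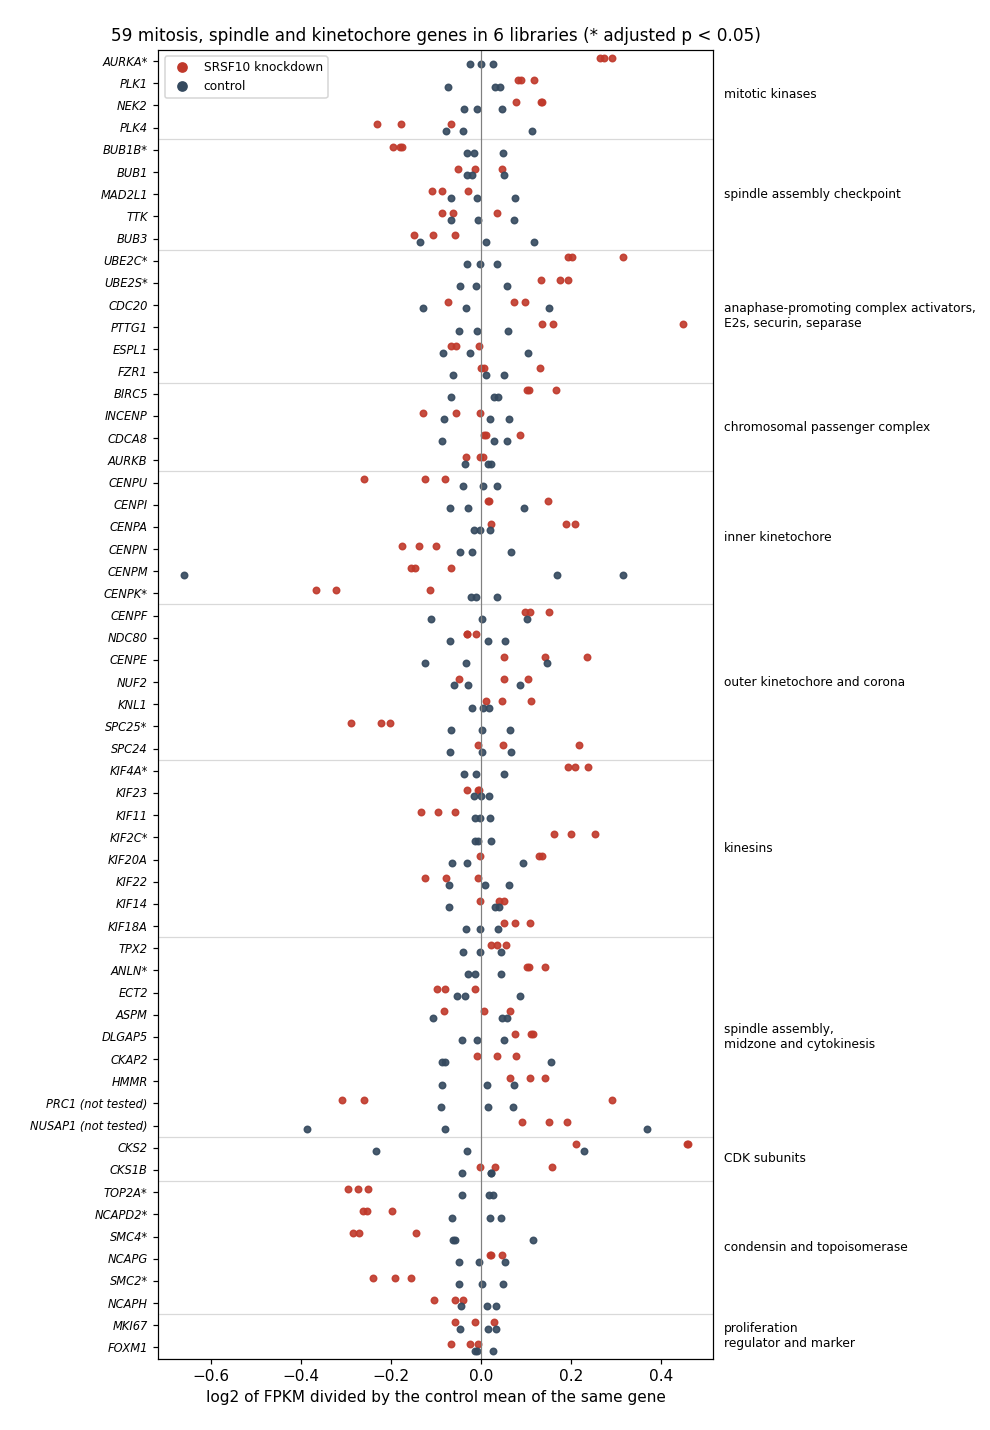
Each row is one of the 59 genes, grouped by role, and each point is 1 library, plotted as the log2 of its FPKM divided by the control mean of that gene (red, SRSF10 knockdown; dark blue, control). Asterisks mark the 13 genes past the threshold. Most rows have overlapping groups, and 4 of the 6 genes of condensin and topoisomerase are marked and lie to the left. Among all tested genes 12.5% were lower.

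The level of these genes was high for this transcriptome. The tested members had a median of 23.3 FPKM over the 6 libraries, against 5.88 FPKM for all tested genes, and every one of the 57 was above 5 FPKM in every library. TPX2, a spindle assembly factor that activates Aurora A, had the highest level. It was at 152, 150 and 149 FPKM in the knockdown and at 151, 146 and 142 FPKM in the controls, and the groups overlapped (log2 fold change 0.04, limma adjusted p = 0.461). TOP2A, ANLN and KIF4A followed. The lowest single value of a tested member was 5.23 FPKM, in CENPM. Replicates were close, with a median coefficient of variation of 3.003% in the knockdown and 3.97% in the controls.

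**Figure D2:**
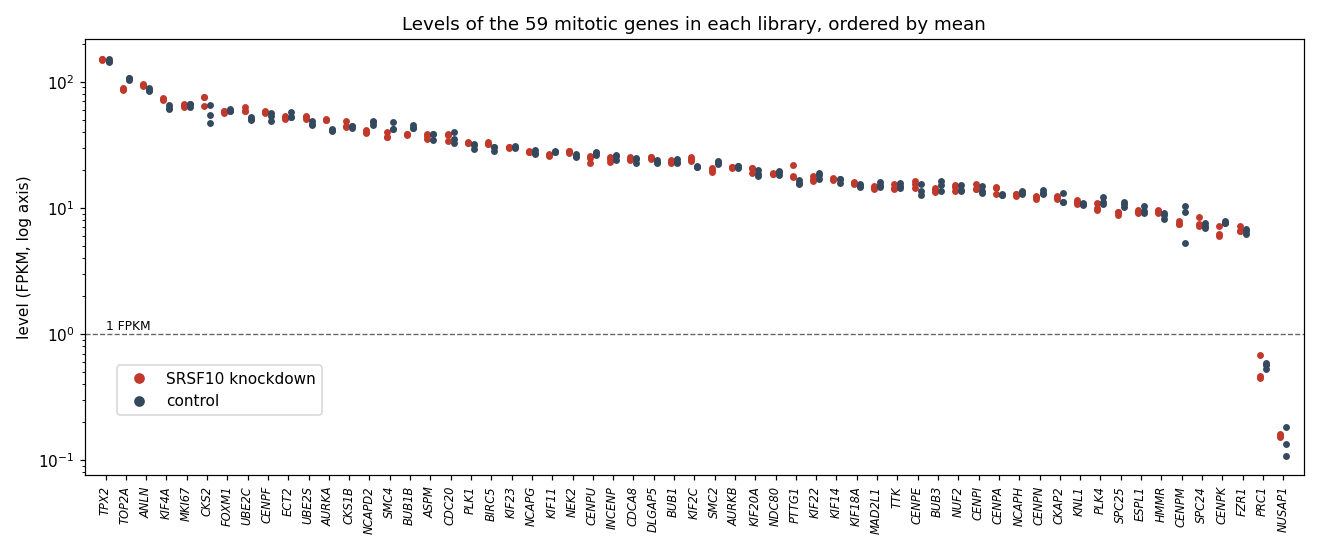
FPKM in each library on a log axis for the 59 genes ordered by mean level, with the knockdown points (red) left of the control points (dark blue). All genes but PRC1 and NUSAP1 lie above the dashed line at 1 FPKM, and the levels of the other genes run from 5.23 to 152 FPKM.

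CHR and CCAAT letters stood in the promoter windows of most of these genes. In RefSeq promoter windows on GRCh38.p14, which run from 250 bases before the transcription start to 50 after it, 50 of the 59 members matched by symbol. The letters searched on both strands were TTTGAA and TTCGAA for the CHR and CCAAT for the CCAAT box. A CHR match stood in the windows of 37 of the 50 members (74%), against 15.6% of tested genes and 19.5% of all 27305 genes with a window. A CCAAT match stood in 38 of the 50 (76%), against 43.6% of tested genes and 39.7% of all genes with a window. Both were found in 29 members (58%), against 8.54% of tested genes. Among members with a window, CHR letters were found in 2 of 4 that rose, 6 of 7 that fell and 27 of 37 that did not pass, and CCAAT letters in 2 of 4, 4 of 7 and 30 of 37. A match of this kind is a string of letters and not a shown binding site, CHR and CCAAT matches overlapped 2 times in these windows, and genes with several windows were counted once. In 38 replication genes with a window CHR letters were rarer (5.26%), while E2F letters (TTTCCCGC, TTTCGCGC, TTTGCCGC or TTTGGCGC on either strand) were found in 55.3%, against 6% of the members and 7.02% of tested genes.

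Windows of 2 genes that rose, KIF4A and ANLN, and 2 that fell, TOP2A and NCAPD2, are shown as examples of such matches. They are given 5′ to 3′ on the strand of the gene, with CHR and CCAAT matches of either strand in capitals, so that a CCAAT box on the opposite strand reads ATTGG and a CHR there reads TTCAAA. The windows lie at chrX:70289854-70290153 (plus strand, KIF4A), chr7:36389612-36389911 (plus strand, ANLN), chr17:40417847-40418146 (minus strand, TOP2A) and chr12:6493852-6494151 (plus strand, NCAPD2).
KIF4A: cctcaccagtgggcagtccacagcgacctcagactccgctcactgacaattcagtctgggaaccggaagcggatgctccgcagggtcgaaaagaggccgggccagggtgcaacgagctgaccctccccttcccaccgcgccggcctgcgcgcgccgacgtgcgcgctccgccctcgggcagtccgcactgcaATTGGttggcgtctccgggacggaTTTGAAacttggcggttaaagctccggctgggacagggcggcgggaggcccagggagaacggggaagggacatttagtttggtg
ANLN: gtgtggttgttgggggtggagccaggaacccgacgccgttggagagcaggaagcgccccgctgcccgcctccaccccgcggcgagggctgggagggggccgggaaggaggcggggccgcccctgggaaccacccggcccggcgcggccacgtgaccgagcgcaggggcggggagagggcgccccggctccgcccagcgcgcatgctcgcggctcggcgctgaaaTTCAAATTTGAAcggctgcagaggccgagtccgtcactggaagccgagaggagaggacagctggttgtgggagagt
TOP2A: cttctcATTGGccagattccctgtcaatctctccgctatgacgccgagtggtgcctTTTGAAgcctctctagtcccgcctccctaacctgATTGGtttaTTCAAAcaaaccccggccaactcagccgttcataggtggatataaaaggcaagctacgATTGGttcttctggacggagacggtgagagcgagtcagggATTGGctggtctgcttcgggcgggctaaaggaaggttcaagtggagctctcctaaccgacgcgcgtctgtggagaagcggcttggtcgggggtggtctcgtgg
NCAPD2: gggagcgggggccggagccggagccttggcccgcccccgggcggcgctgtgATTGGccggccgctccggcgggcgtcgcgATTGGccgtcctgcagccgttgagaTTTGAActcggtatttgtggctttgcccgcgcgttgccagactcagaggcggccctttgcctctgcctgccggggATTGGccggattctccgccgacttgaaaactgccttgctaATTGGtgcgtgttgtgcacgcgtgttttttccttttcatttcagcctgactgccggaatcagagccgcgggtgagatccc
KIF4A had a CCAAT match whose first base lay at -58 and a CHR match at -34, counted from the transcription start. ANLN had CHR matches at -26 and -20, with no base between them, and no CCAAT match. TOP2A had 4 CCAAT matches, at -244, -160, -93 and -53, and CHR matches at -194 and -151. NCAPD2 had 4 CCAAT matches, at -199, -170, -70 and -30, and a CHR match at -145. KIF4A and ANLN were the 2 with CHR letters among the 4 genes that rose and had a window, and KIF2C and UBE2S had none. As examples the windows shown cannot tell how often genes that rose or fell carry these letters.

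Of the mitotic kinases 1 of 4 rose and none fell, where 12.6% of all tested genes rose and 12.5% fell. AURKA, the kinase of centrosomes and spindle poles, had the smallest adjusted p of all members (ENSG00000087586, GRCh38 chromosome 20, 56369389 to 56392337, minus strand). It was at 49.6, 50.2 and 49.3 FPKM in the knockdown and at 41.1, 40.4 and 41.9 FPKM in the controls. Each knockdown library lay above each control, and the mean of 49.7 ± 0.468 FPKM was 20.9% above that of 41.1 ± 0.725 FPKM in the controls (SD, n = 3 each; log2 fold change 0.27, SE 0.0301, limma adjusted p = 0.00167). PLK1, which acts in mitotic entry and at kinetochores, was at 33.6, 32.7 and 32.9 FPKM in the knockdown and at 31.6, 31.9 and 29.4 FPKM in the controls. Its log2 fold change of 0.09 did not pass (limma adjusted p = 0.141), and neither did that of NEK2, a centrosome kinase, at 0.11 (limma adjusted p = 0.0681), though neither gene's groups overlapped. PLK4, which starts centriole duplication, had a log2 fold change of -0.14 with overlapping groups (limma adjusted p = 0.148).

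Among the 5 genes of the spindle assembly checkpoint 1 fell, and all 5 had negative log2 fold changes, -0.18 to -0.01. Over all 12191 tested genes 6410 log2 fold changes were negative and 12.5% of genes fell. BUB1B encodes BUBR1, a part of the mitotic checkpoint complex that inhibits the anaphase-promoting complex (ENSG00000156970, GRCh38 chromosome 15, 40161023 to 40221136, plus strand). Its level was 38.5, 38.6 and 38.04 FPKM in the knockdown and 43.1, 42.6 and 45.1 FPKM in the controls. The groups did not overlap, and the mean fell by 12.004% in the knockdown (log2 fold change -0.18, SE 0.0336, limma adjusted p = 0.0100). Neither the kinases BUB1 and TTK nor the checkpoint proteins MAD2L1 and BUB3 passed, with limma adjusted p from 0.322 for MAD2L1 to 0.928 for BUB1, and their groups overlapped.

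Both ubiquitin-conjugating enzymes that work with the anaphase-promoting complex rose, which were 2 of the 6 genes of their group. Among all tested genes 12.6% rose. UBE2C, which places the first ubiquitins on its substrates, was at 58.7, 58.3 and 63.5 FPKM in the knockdown and at 49.9, 52.2 and 50.9 FPKM in the controls (ENSG00000175063, GRCh38 chromosome 20, 45812576 to 45816957, plus strand). Knockdown replicate 3 was the highest, and all knockdown values lay above all control values (17.9% higher mean, log2 fold change 0.23, SE 0.0425, limma adjusted p = 0.00917). UBE2S, which extends the chains, was at 53.1, 52.5 and 51.02 FPKM in the knockdown and at 45.04, 48.4 and 46.2 FPKM in the controls (ENSG00000108106, GRCh38 chromosome 19, 55399745 to 55407777, minus strand). The groups did not overlap (12.2% higher mean, log2 fold change 0.16, SE 0.038, limma adjusted p = 0.0217). This call of UBE2S was lost without control replicate 1 (limma adjusted p = 0.0638) or 3 (0.0514) and without knockdown replicate 1 (0.0747) or 2 (0.0747).

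The other members of the group did not pass. Securin, PTTG1, whose destruction frees separase, was at 21.8, 17.6 and 17.9 FPKM in the knockdown and at 15.9, 15.5 and 16.7 FPKM in the controls. Knockdown replicate 1 stood above the rest, and the log2 fold change of 0.24 had a limma adjusted p of 0.0818. Without that library it was 0.14. CDC20, the activator of the complex at the start of anaphase, was at 33.9, 38.2 and 37.5 FPKM in the knockdown and at 34.9, 39.6 and 32.7 FPKM in the controls, with overlapping groups and a limma adjusted p of 0.783. FZR1, the activator of late mitosis and G1, and ESPL1, which is separase itself, had log2 fold changes of 0.04 and -0.04.

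Of the 4 genes of the chromosomal passenger complex, which corrects faulty attachments and guides cytokinesis, none passed the threshold. Among all tested genes 25.2% passed in either direction. BIRC5, or survivin, had the smallest limma adjusted p of the 4. It was at 31.9, 33.3 and 31.9 FPKM in the knockdown and at 30.4, 30.3 and 28.3 FPKM in the controls. The groups did not overlap (log2 fold change 0.12, limma adjusted p = 0.0716). BIRC5 passed with median-of-ratios scaling (limma adjusted p = 0.0445) and set against the median of its chromosome (0.0472), within a range of 0.0445 to 0.208 over all alternatives. AURKB, the kinase of the complex, was at 20.7, 21.1 and 21.2 FPKM in the knockdown and at 21.4, 21.5 and 20.7 FPKM in the controls. Its log2 fold change of -0.01 had a 95% interval of -0.09 to 0.07, whereas the interval of AURKA ran from 0.20 to 0.34. Both intervals reflect the spread between these libraries, which may be technical. The scaffold INCENP and the borealin gene CDCA8 had log2 fold changes of -0.06 and 0.03.

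In the inner kinetochore, the part bound to centromeric chromatin, 1 of 6 genes fell and none rose. Among all tested genes 12.5% fell and 12.6% rose. CENPK was at 7.13, 6.17 and 5.98 FPKM in the knockdown and at 7.65, 7.59 and 7.90 FPKM in the controls (ENSG00000123219, GRCh38 chromosome 5, 65517766 to 65563171, minus strand). Knockdown replicate 1 lay nearest to the controls, and the mean fell by 16.7% (log2 fold change -0.23, SE 0.0649, limma adjusted p = 0.0396). This call was lost on leaving out any library but knockdown replicate 1, with adjusted p up to 0.119. CENPU, of the same chromatin-bound network, was at 25.8, 24.9 and 22.7 FPKM in the knockdown and at 26.5, 27.3 and 27.9 FPKM in the controls, without overlap, and did not pass (log2 fold change -0.15, limma adjusted p = 0.0784, and -0.099 without knockdown replicate 3). CENPA, the centromeric histone H3 variant, lay the other way, at 14.5, 12.9 and 14.7 FPKM in the knockdown and 12.6, 12.7 and 12.9 FPKM in the controls (log2 fold change 0.13, limma adjusted p = 0.128). CENPM was at 7.43, 7.89 and 7.47 FPKM in the knockdown and at 9.30, 10.3 and 5.23 FPKM in the controls. Its control replicate 3 stood far below the other controls, and the 95% interval of its log2 fold change, -0.56 to 0.43, was wide.

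Of the 7 genes of the outer kinetochore and corona 1 fell, where 12.5% of all tested genes fell. SPC25 is a subunit of the NDC80 complex, which holds the microtubule (ENSG00000152253, GRCh38 chromosome 2, 168834132 to 168913371, minus strand). It was at 9.33, 8.80 and 9.20 FPKM in the knockdown and at 10.8, 11.2 and 10.3 FPKM in the controls, with no overlap, and the mean fell by 15.2% (log2 fold change -0.22, SE 0.047, limma adjusted p = 0.0172). This call was lost without control replicate 1 (limma adjusted p = 0.051) and without knockdown replicate 2 (0.064) or 3 (0.0526). The other subunits of that complex, NDC80, NUF2 and SPC24, had log2 fold changes of -0.02, 0.03 and 0.08 with overlapping groups. CENPF, a large protein of the corona, was at 58.8, 57.1 and 56.7 FPKM in the knockdown and at 53.1, 49.1 and 56.9 FPKM in the controls. Control replicate 3 reached into the knockdown range, and the log2 fold change of 0.12 did not pass (limma adjusted p = 0.167), while without that library it was 0.17 and passed (0.0451). Without control replicate 2 it was 0.06 (limma adjusted p = 0.339), and CENPF passed in 1 of the 14 alternatives tried.

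Of the 8 kinesins 2 rose and none fell, where 12.6% of all tested genes rose and 12.5% fell. KIF4A, a chromosome-bound motor that shortens the spindle midzone overlap, was at 74.2, 72.8 and 72.02 FPKM in the knockdown and at 61.3, 62.4 and 65.2 FPKM in the controls (ENSG00000090889, GRCh38 chromosome X, 70290090 to 70420832, plus strand). The groups did not overlap and the mean was 15.9% higher (log2 fold change 0.21, SE 0.0347, limma adjusted p = 0.00647). KIF2C, the microtubule depolymerase MCAK of centromeres, was at 24.3, 25.2 and 23.7 FPKM in the knockdown and at 20.96, 21.1 and 21.5 FPKM in the controls (ENSG00000142945, GRCh38 chromosome 1, 44739818 to 44767767, plus strand). Again the groups lay apart (15.3% higher mean, log2 fold change 0.20, SE 0.0364, limma adjusted p = 0.00977). KIF11, the motor that pushes the spindle poles apart, was at 26.9, 26.2 and 25.5 FPKM in the knockdown and at 28.4, 27.9 and 27.7 FPKM in the controls, and did not pass (log2 fold change -0.09, limma adjusted p = 0.0927). The remaining 5 kinesins, KIF14, KIF18A, KIF20A, KIF22 and KIF23, had log2 fold changes of -0.07 to 0.08.

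Of the genes of spindle assembly, midzone and cytokinesis, 1 of 7 tested rose, where 12.6% of all tested genes rose. ANLN, the anillin scaffold of the contractile ring, was at 95.9, 93.5 and 93.2 FPKM in the knockdown and at 85.1, 86.0 and 89.6 FPKM in the controls (ENSG00000011426, GRCh38 chromosome 7, 36389806 to 36453791, plus strand). The groups did not overlap, and the mean was 8.38% higher (log2 fold change 0.12, SE 0.033, limma adjusted p = 0.044). ANLN was the smallest of the changes that passed. Its call was lost on leaving out any library but control replicate 3, and also without mitochondrially encoded genes in the scaling, with limma adjusted p of 0.0648 to 0.134 in these fits. DLGAP5, a spindle protein bound by Aurora A, had a log2 fold change of 0.10 with groups that did not overlap (limma adjusted p = 0.102). ASPM and CKAP2, of spindle poles, the hyaluronan receptor and spindle protein HMMR, and ECT2, which activates RhoA at the cleavage site, had overlapping groups. ECT2 lies on chromosome 3, as does SMC4 below.

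PRC1, which bundles midzone microtubules, and NUSAP1, a microtubule-binding spindle protein, were too low to be tested. PRC1 was at 0.685, 0.452 and 0.468 FPKM in the knockdown and at 0.567, 0.527 and 0.588 FPKM in the controls, or 33 to 53 estimated fragments a library. NUSAP1 was at 0.158, 0.163 and 0.152 FPKM in the knockdown and at 0.135, 0.109 and 0.184 FPKM in the controls, or 4 to 7 fragments. In GENCODE release 29, 57.6% of the exon bases of PRC1 also belong to AC068831.7, a protein-coding gene on the same strand, and 62.2% of those of NUSAP1 to AC087721.2. AC068831.7 was at 2.12, 1.83 and 1.97 FPKM in the knockdown and at 2.03, 2.01 and 2.11 FPKM in the controls, and AC087721.2 was listed at 0 in all libraries. No other member shared more than 33.1% of its exon bases with another gene. The part of these overlaps in the low values was not tested.

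The small CDK-binding subunits did not pass. CKS2 had the largest log2 fold change of all members, 0.38, with values that varied widely between replicates. It was at 64.1, 76.1 and 76.0 FPKM in the knockdown and at 54.2, 64.9 and 47.1 FPKM in the controls. Control replicate 2 lay above knockdown replicate 1, so the groups overlapped (mean 72.1 ± 6.89 against 55.4 ± 8.94 FPKM, SD, n = 3 each; limma adjusted p = 0.0595). Without control replicate 2 the log2 fold change was 0.50 and passed (0.0194), and over all alternatives tried the adjusted p ran from 0.0194 to 0.178. CKS1B was at 43.9, 44.9 and 48.9 FPKM in the knockdown and at 44.6, 42.6 and 44.6 FPKM in the controls (log2 fold change 0.06, limma adjusted p = 0.410).

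Of the 6 genes of condensin and topoisomerase, which compact and untangle chromosomes, 4 fell and none rose, with a median log2 fold change of -0.21. This was the largest share lower among the 11 role groups, where 12.5% of all tested genes were lower. The call of 1 of the 4, SMC4, was lost when set against the median of its chromosome (limma adjusted p = 0.739). TOP2A, the DNA topoisomerase of dividing cells, was at 87.1, 88.5 and 85.8 FPKM in the knockdown and at 107, 107 and 102 FPKM in the controls (ENSG00000131747, GRCh38 chromosome 17, 40388516 to 40417950, minus strand). The groups were far apart next to their spread, and the mean fell by 17.3% (log2 fold change -0.27, SE 0.0324, limma adjusted p = 0.00214). NCAPD2, a non-SMC subunit of condensin I, was at 39.6, 41.2 and 39.4 FPKM in the knockdown and at 47.9, 48.7 and 45.2 FPKM in the controls (ENSG00000010292, GRCh38 chromosome 12, 6493356 to 6531955, plus strand). Here too every knockdown value lay below every control (the mean fell by 15.2%, log2 fold change -0.23, SE 0.0401, limma adjusted p = 0.00749).

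SMC2 and SMC4 are the ATPase subunits that both condensins share. SMC2 was at 20.6, 19.4 and 20.1 FPKM in the knockdown and at 22.9, 22.2 and 23.7 FPKM in the controls (ENSG00000136824, GRCh38 chromosome 9, 104094260 to 104141417, plus strand). Its groups did not overlap (the mean fell by 12.7%, log2 fold change -0.19, SE 0.0404, limma adjusted p = 0.0168), and the call was lost without knockdown replicate 2 (0.0638) or 3 (0.056). SMC4 was at 40.1, 36.7 and 36.4 FPKM in the knockdown and at 42.5, 42.6 and 48.05 FPKM in the controls (ENSG00000113810, GRCh38 chromosome 3, 160399274 to 160434962, plus strand). Knockdown replicate 1 lay close to the lower controls (the mean fell by 14.9%, log2 fold change -0.23, SE 0.0618, limma adjusted p = 0.0375).

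SMC4 lies on a chromosome whose genes were lower in the knockdown as a whole. On chromosome 3, 315 of 718 tested genes fell (43.9%) and 34 rose, with a median log2 fold change of -0.19. Set against the median of its chromosome the log2 fold change of SMC4 was -0.03 (limma adjusted p = 0.739). The SMC4 call was also lost with median-of-ratios scaling (0.0539) and on leaving out any library but knockdown replicate 1 (0.0517 to 0.116). Exons of TRIM59, on the opposite strand, cover 18.5% of the exon bases of SMC4. The condensin I subunits NCAPG and NCAPH had log2 fold changes of 0.03 and -0.06 with overlapping groups, so the changes were not shared by all subunits measured.

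**Figure D3:**
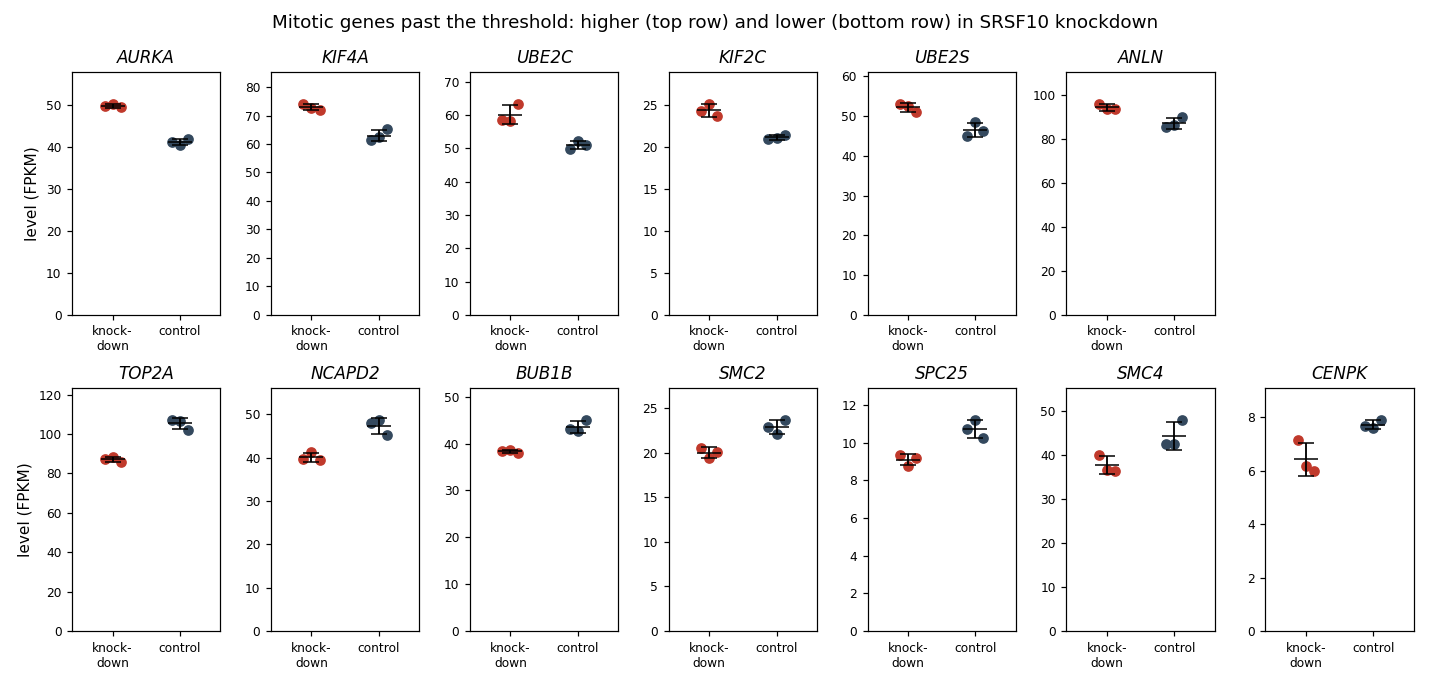
FPKM in each of the 3 libraries per group, with bars for the mean and SD, for the 6 genes that were higher in the knockdown (top row) and the 7 that were lower (bottom row). The axes start at 0, so the distances show that even the largest rise in percent, that of AURKA at 49.7 against 41.1 FPKM, was a small part of the level.

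FOXM1, a transcription factor that drives many of these genes, and MKI67, which coats mitotic chromosomes and gives the Ki-67 proliferation marker, did not pass. FOXM1 was at 58.9, 56.5 and 58.2 FPKM in the knockdown and at 60.2, 58.8 and 58.6 FPKM in the controls (log2 fold change -0.03, 95% interval -0.11 to 0.04, limma adjusted p = 0.497). MKI67 was at 66.9, 64.9 and 63.03 FPKM in the knockdown and at 67.1, 63.5 and 66.3 FPKM in the controls (log2 fold change -0.01, 95% interval -0.10 to 0.07, limma adjusted p = 0.821). Of the 44 tested members that did not pass, 37 had a 95% interval within 0.25 of 0 on the log2 scale. Over all 44 the intervals reached from -0.56 to 0.67, and 24 of the estimates were above 0 and 20 below.

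Other genes of mitosis, in 8 lists of 133 genes without the 59, gave 9 higher and 27 lower of 128 tested. Their median log2 fold change was -0.07. Of all tested genes 12.6% were higher and 12.5% lower, with a median of -0.01. Among mitotic cyclins and CDK1 control 1 of 9 rose (11.1%). That gene was CDC25B, the phosphatase that activates CDK1 at mitotic entry, at 81.2, 80.4 and 80.05 FPKM in the knockdown and at 59.3, 61.97 and 57.6 FPKM in the controls. All its knockdown values were far above the controls, and its log2 fold change of 0.43 was larger than that of any of the 59 (SE 0.0356, limma adjusted p = 0.000679). CDK1 and the cyclins CCNA2, CCNB1 and CCNB2 did not pass, with log2 fold changes of -0.03 to 0.11.

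In the list of the anaphase-promoting complex and its inhibitor 6 of 15 genes fell (40%) and none rose, with a median of -0.15. The share lower among all tested genes was 12.5%. The inhibitor FBXO5, or EMI1, was at 16.04, 15.9 and 15.1 FPKM in the knockdown and at 18.2, 18.3 and 18.9 FPKM in the controls (log2 fold change -0.22, limma adjusted p = 0.00787). ANAPC5, a scaffold subunit, was at 15.6, 17.0 and 16.3 FPKM in the knockdown and at 19.8, 20.8 and 19.1 FPKM in the controls (log2 fold change -0.27, limma adjusted p = 0.00813). Neither gene's groups overlapped. The subunits ANAPC13, on chromosome 3, and CDC23 also fell, by 0.23 and 0.15 on the log2 scale.

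Of the corona list, 4 of 8 tested genes fell (50%) and 1 rose, with a median of -0.18. Among all tested genes 12.5% fell and 12.6% rose. KNTC1, a subunit of the complex that brings dynein to kinetochores, was at 13.1, 13.1 and 12.6 FPKM in the knockdown and at 16.3, 15.3 and 16.1 FPKM in the controls (log2 fold change -0.28, limma adjusted p = 0.00396). ZWINT, which links that complex to the outer kinetochore, was at 31.9, 30.7 and 30.1 FPKM in the knockdown and at 35.99, 37.1 and 35.5 FPKM in the controls (log2 fold change -0.22, limma adjusted p = 0.00641). ZW10 and SKA3 fell by 0.20 and 0.22 on the log2 scale, and SKA2, named after its values were seen, rose by 0.14. In the inner kinetochore and Mis12 list 2 of 17 tested genes fell (11.8%), a share close to that of all tested genes, and none rose. CENPX fell by 0.38 and MIS18A by 0.25 on the log2 scale. HAUS5, which fell by 0.27, was the single gene of 14 tested augmin and gamma-tubulin genes to pass (7.14%).

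Of condensin II and cohesin genes 4 of 15 fell (26.7%) and 1 rose, where 12.5% of all tested genes fell and 12.6% rose. SMC1A, an ATPase of cohesin, was at 52.9, 52.5 and 52.8 FPKM in the knockdown and at 59.5, 57.9 and 59.5 FPKM in the controls (log2 fold change -0.16, limma adjusted p = 0.00938). STAG1, on chromosome 3, and the condensin II gene NCAPG2 fell by 0.27 and 0.16 on the log2 scale, and SGO2, a protector of centromeric cohesin, rose by 0.17. Among other spindle and cytokinesis genes 5 of 29 rose (17.2%) and 2 fell (6.9%), with a median of 0.04. TMPO, of the nuclear lamina, was at 64.4, 62.1 and 64.1 FPKM in the knockdown and at 82.2, 83.6 and 84.8 FPKM in the controls (log2 fold change -0.39, limma adjusted p = 0.00062). The kinesin KIF15, on chromosome 3, fell by 0.48 on the log2 scale, and GAS2L3 and KIF20B, which act in cytokinesis, rose by 0.35 and 0.22.

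Of the 21 tested regulators in the DREAM and B-MYB list 8 fell and 1 rose, with a median of -0.17, where 12.5% of all tested genes fell and 12.6% rose. E2F8, a repressor of E2F target genes, was at 4.39, 4.14 and 5.02 FPKM in the knockdown and at 7.65, 7.36 and 6.71 FPKM in the controls (log2 fold change -0.58, limma adjusted p = 0.00276). Its relative E2F7 lay the other way, at 16.5, 15.4 and 15.4 FPKM in the knockdown and 12.04, 11.1 and 12.6 FPKM in the controls (log2 fold change 0.38, limma adjusted p = 0.00405). MYBL2, which encodes B-MYB, was at 73.5, 71.8 and 75.3 FPKM in the knockdown and at 92.5, 92.4 and 83.8 FPKM in the controls (log2 fold change -0.28, limma adjusted p = 0.00677). NFYA, a subunit of the CCAAT-binding factor, fell by 0.25 on the log2 scale.

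Genes of DNA replication, the other large set of the cell cycle, lay lower. Of 45 tested, 29 fell (64.4%) and none rose, where 12.5% of all tested genes fell. The median log2 fold change was -0.25, against 0.03 for the mitotic genes (0.0051 to 0.021 with 1 library left out). No test between the sets was run, and both were chosen with earlier results of these data known. The range with 1 library left out is given for the mitotic genes only. GMNN, or geminin, which blocks the licensing of origins, was at 9.26, 8.96 and 9.45 FPKM in the knockdown and at 16.8, 18.9 and 15.7 FPKM in the controls (log2 fold change -0.82, limma adjusted p = 0.000632). MCM2, a subunit of the replicative helicase and on chromosome 3, was at 38.05, 36.95 and 36.5 FPKM in the knockdown and at 51.3, 51.5 and 49.7 FPKM in the controls (log2 fold change -0.44, limma adjusted p = 0.000511). PCNA, the sliding clamp of DNA polymerases, was at 143, 152 and 144 FPKM in the knockdown and at 187, 192 and 190 FPKM in the controls (log2 fold change -0.37, limma adjusted p = 0.000943). CDC45, which loads with that helicase, fell by 0.39 on the log2 scale. These genes were named for having the smallest adjusted p of the 45. The fall of each was larger than the largest fall among the 59, that of TOP2A.

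**Figure D4:**
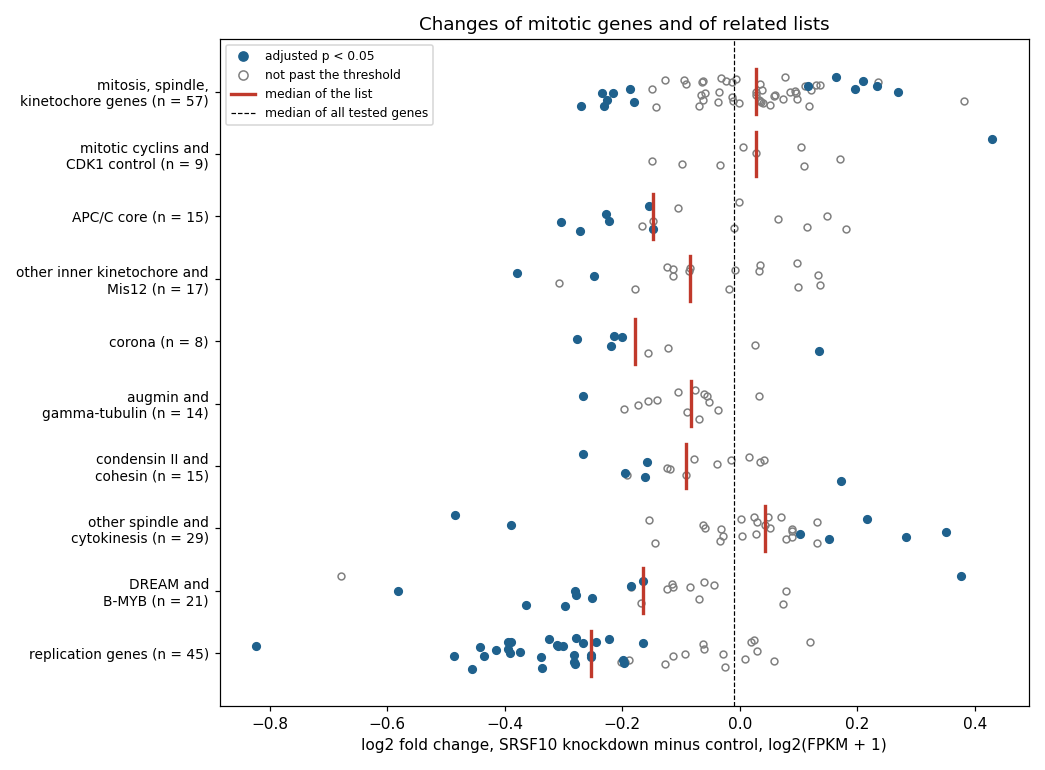
Log2 fold change, knockdown minus control on log2(FPKM + 1), of each tested gene of the 59 and of 9 related lists. Filled points passed an adjusted p of 0.05, red bars are list medians and the dashed line is the median of all 12191 tested genes. The mitotic genes lie on both sides of 0 with a median of 0.03 (0.0051 to 0.021 with 1 library left out). The replication genes lie mostly below 0 with a median of -0.25. All lists were chosen with earlier results of these data known.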

How the data were processed

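RNA-seq libraries of 3 knockdown and 3 control samples labelled Huh7 were used. Per the labels' protocols, total RNA extracted with TRIzol was made into libraries with a Vazyme VAHTS kit and sequenced on an Illumina NovaSeq. The submitters' processing notes name Trim Galore 0.6.5-1, FastQC 0.11.9 and the build GRCh38. Not given in the sources used here are aligner, counter, annotation and strand setting. The values the authors deposited are FPKM, already divided by depth and length, so a count model was not run. Being shares of a total, they shift when abundant transcripts change.

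Genes with at least 1 FPKM in at least 3 libraries were tested on log2(FPKM + 1) with limma 3.58.1 in R 4.3.3 (trend on mean level, group as the only term), with Benjamini-Hochberg adjustment over all 12191 and a threshold of 0.05. The pseudocount of 1 understates changes of low genes. The steps were tested on simulated data. Positions and exon overlaps come from GENCODE release 29, which can differ from the authors' annotation. In that release 23 members share exon bases with other genes, whose reads may be mixed where strand was not used. For PRC1, NUSAP1, BUB1B and CENPA the overlapping genes include 1 on the same strand, where strand does not separate the reads. Fragments were estimated by finding the depth at which low FPKM give whole fragments (86.1% to 86.9% within 0.05, for values up to 6.5 fragments).

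The members and all lists were chosen with earlier results of these data known. Members are named where they passed, had the highest level or largest change of their role, or were among the 10 smallest adjusted p. Of each related list, at most 4 genes past the threshold are named, by smallest adjusted p. Other genes with values are given for their known role and were chosen after their values were seen. Alternatives were no filter, a 5 FPKM filter, a pseudocount of 0.1, median-of-ratios scaling, scaling without mitochondrially encoded genes, limma without the trend, a replicate block, each library left out and, chosen after seeing the data, centring on each chromosome's median.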

Additional observations from a re-analysis of the deposited data

How the results depend on the processing

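Of the 13 members that passed, AURKA, KIF4A, KIF2C, UBE2C, TOP2A, NCAPD2 and BUB1B passed in all 14 alternatives. SMC2 passed in 12, SPC25 in 10, UBE2S in 7, CENPK in 5, and ANLN and SMC4 in 4 each, with no change of direction in any of them. The count of lower members, 7, was 4 with a replicate block and 3 to 7 with 1 library left out, and that of higher members, 6, was 4 with the block, 9 with median-of-ratios scaling and 4 to 6 with 1 library left out. Deviations of same-numbered knockdown and control libraries had r of 0.016, 0.057 and -0.071, and those of differently numbered ones -0.149 to 0.129. With 3 libraries per group these r cannot decide whether libraries were paired. Over all tested genes the count lower, 1525, was 1013 with no filter and 964 to 1327 with 1 library left out, and the count higher, 1542, was 894 to 1352. The median log2 fold change of the members was 0.0051 to 0.021 with 1 library left out. MKI67, at -0.01, ran from -0.037 to 0.0072 with 1 library left out, and was above 0 without control replicate 1 (0.0019) or knockdown replicate 3. The cause was not tested in any of these cases. SRSF10 passed in every alternative, with log2 fold changes of -0.85 to -0.78. Depth was 126 to 12327 estimated fragments per tested member and library, so counting error is larger for the low members.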

Other observations

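Pseudogenes of the members, processed and unprocessed, are listed in the same table. There were 29 rows for 16 members, 16 of the rows were at 0 in all libraries, and 3 reached 1 FPKM in any library. The largest was CKS1BP3, at 3.92, 7.44 and 4.62 FPKM in the knockdown and at 5.87, 5.97 and 3.43 FPKM in the controls, with overlapping groups. Its parent CKS1B had 42.6 to 48.9 FPKM over the 6 libraries. Whether reads of CKS1B and its copies were split between the rows was not tested.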
